A study of Rattus norvegicus with 8 samples.

Results

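The rat genes for chitin-cleaving enzymes, their enzymatically silent relative and the lysozymes were followed in the neurohypophysis, the pituitary lobe where axons from the hypothalamus release vasopressin and oxytocin. The set comprised 5 genes, Chia, Chi3l1, Chit1, Lyz2 and Lyc2, of 33294 genes in the deposited table. They were picked by symbol, after Chia and Lyc2 had been seen to be much higher in the older animals. Every age difference of these 5 genes is therefore a description without a test. All libraries came from male Sprague Dawley rats: the younger group was 35 days old (n = 4 libraries) and the older 125 days (n = 4). The lobe was taken after perfusion with PBS under isoflurane anesthesia and frozen, and poly(A)-selected RNA was sequenced. Nothing in the labels says how many animals contributed to a library, so p-values below measure only the spread between libraries, part of which may be technical.

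Chitin is a polymer of N-acetylglucosamine in insects, fungi and worms that mammals do not make. Mammals nevertheless secrete chitinases: acidic mammalian chitinase, encoded by Chia, is known from stomach, salivary gland and lung, and chitotriosidase, encoded by Chit1, from activated macrophages. Chi3l1 encodes a chitinase-like lectin that binds chitin without cutting it and is made by macrophages and reactive astrocytes. Lysozyme C cuts the peptidoglycan of bacterial walls and is a product of macrophages and granulocytes. In the rat it has more than 1 gene, of which Lyz2 and Lyc2 lie side by side.

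Libraries held 28429133 to 58696254 reads, recovered from depth-normalized counts, which are gene read counts divided by 1 size factor per library. Markers of pituicytes, the glia of this lobe, were present in every library, and 0 of the 11 listed were at 0 throughout. Intermediate lobe transcripts were abundant too: the 6 genes of that list summed to 2028747 to 3773794 depth-normalized counts at 35 days and 3635229 to 5362765 at 125 days. Nearly all of this was 1 gene, Pomc, at 1957147.8 to 3724079.2 and 3555297.7 to 5272641.5. The 10 anterior lobe markers summed to 24427 to 1394432 at 35 days and 6553 to 50197 at 125 days, with 35-day replicate 3 the highest. All values therefore describe the lobe as dissected, with transcripts of the neighbouring lobes among them, and fewer cells of a type cannot be told apart from less RNA per cell.

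The sequences upstream of the lysozyme pair and of Chia are shown because Lyc2 and Chia had the largest age differences of the 5 genes, and to set Lyc2 beside its neighbour Lyz2. They are not transcribed from these starts and give no reads. The sequences are the 250 bases before the annotated start of each gene, 5′ to 3′ on the gene's strand, from RefSeq on build GRCr8, whereas the counts were made on rn7. In Lyc2 (chr7:54772759-54773008, plus strand) and Lyz2 (chr7:54798012-54798261, minus strand), capitals mark the 39 bases directly before the start that are identical between them. In Chia (chr2:196302437-196302686, plus strand), capitals mark the letters TATAAA, the core of a TATA box, and both matches to TTNNGNAA, a loose form of the C/EBP site.
Lyc2: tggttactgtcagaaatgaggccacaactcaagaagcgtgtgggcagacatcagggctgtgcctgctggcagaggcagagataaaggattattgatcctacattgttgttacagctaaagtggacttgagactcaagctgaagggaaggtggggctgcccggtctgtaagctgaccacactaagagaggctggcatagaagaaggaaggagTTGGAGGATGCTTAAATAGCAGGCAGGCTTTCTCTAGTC
Lyz2: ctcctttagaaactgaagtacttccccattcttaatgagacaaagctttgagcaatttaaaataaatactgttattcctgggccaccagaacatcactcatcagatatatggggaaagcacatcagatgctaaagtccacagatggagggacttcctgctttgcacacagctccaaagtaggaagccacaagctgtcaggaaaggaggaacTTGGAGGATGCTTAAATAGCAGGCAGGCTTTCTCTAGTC
Chia: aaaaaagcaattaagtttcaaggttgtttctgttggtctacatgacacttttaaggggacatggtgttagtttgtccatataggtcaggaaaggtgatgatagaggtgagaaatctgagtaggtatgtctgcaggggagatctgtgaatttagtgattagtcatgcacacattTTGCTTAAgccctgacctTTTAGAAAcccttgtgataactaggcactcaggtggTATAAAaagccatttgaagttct
The lysozyme genes also matched at 50 of the 50 bases after the start, which are not shown and lie in the transcripts. Farther upstream, compared position by position without gaps, 27 of the first 150 bases were the same (18%). An inserted or deleted base would by itself lower such a count, so it does not show how far they diverged. Reads from the shared part of the transcripts may not be assignable to 1 gene, and how the authors' counting treated them is not given in the sources used here, so the separate Lyc2 and Lyz2 values are uncertain. On both strands of 33469 promoters of the same 250-base length, TATAAA was found in 12.9%, and among the promoters of these 5 genes in that of Chia alone, 23 to 18 bases before the start. TTNNGNAA was found in 37.2% of all promoters. It matched in those of Chia, Lyz2 and Chi3l1 and in 1 of 2 for Chit1, and these letters were not in the Lyc2 window. GAGGAA, a core bound by ETS factors such as PU.1 of myeloid cells, occurred in 23.3% of all, in Lyz2 at 46 to 41 bases before the start and in 1 of 2 promoters of Chit1. The latter match overlaps the TTNNGNAA match of that promoter. TGANTCA, the AP-1 site (6.34% of all), matched only the other Chit1 promoter, and a loose NF-kB site (16.4%) only the first. Neither the STAT site TTCNNNGAA (7.67%) nor the STAT6 site, which has 1 more base in its spacer (6.25%), matched in any of the 6 promoters of the 5 genes. These matches are descriptions of letters, not of binding.

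All 5 genes passed the filter on low values (at least 10 in at least 4 libraries). In the limma fit over 17919 genes, 4 of the 5 were past an adjusted p of 0.05 and higher at 125 days, where 8.85% of all genes tested were, and 0 were lower, where 8.87% were. Since this contrast chose them, nothing is read from that count. In the same 4 genes every 125-day library was above every 35-day library, which was so for 13.4% of genes tested. The median log2 change over the 5 was 1.67, beside 0.01 over all genes tested. The shares over all genes, 8.85% higher and 8.87% lower, also belong beside each list count below.

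Chia was the chitinase with the largest difference. At 35 days it was at 2471, 1383, 1899 and 2436 depth-normalized counts in replicates 1 to 4, and at 125 days at 47529, 21056, 33381 and 43030.3. The ages were far apart, the lowest older library being 8.52 times the highest younger one. Means were 2047 ± 515 and 36249 ± 11723 (SD, n = 4 each), a 17.7-fold ratio and a log2 change of 4.12 (SE 0.26), and only 5 of the genes tested had a larger positive log2 change. The fold of means stayed between 15.9 and 20.2 when any 1 library was left out. Counting error was small beside this spread, since the lowest library held 1338 Chia reads and the highest 46790.

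Chit1, the macrophage chitinase gene, was at 85.2, 81.6, 119 and 118 at 35 days and at 254, 277, 414 and 357 at 125 days. All older libraries were above all younger ones, by at least 2.14 times. Means of 101 ± 20.2 and 325 ± 73.6 (SD, n = 4) gave a 3.22-fold ratio and a log2 change of 1.67 (SE 0.20). Between 70 and 365 reads per library stand behind these values.

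Chi3l1, the chitinase-like lectin, was at 2797, 3189, 2987 and 2388 at 35 days and at 3230, 7383, 4434 and 4863 at 125 days. The ages met at the border: 125-day replicate 1 was 1.01 times 35-day replicate 2. The mean went from 2840.3 ± 341 to 4978 ± 1746 (SD, n = 4; log2 change 0.75, SE 0.21), and the log2 change was 0.54 without 125-day replicate 2 and 0.94 without 125-day replicate 1.

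Lyz2, the lysozyme gene commonly used as a myeloid marker, was at 3671, 2854, 3649 and 2732 at 35 days and at 3313, 2847, 5057 and 3787 at 125 days. Here the ages overlapped, with 2 of 4 older libraries inside the younger range. The means were 3227 ± 503 and 3751 ± 952 (SD, n = 4; log2 change 0.20, SE 0.18). The log2 change was 0.04 without 125-day replicate 3, the highest library, 0.32 without 125-day replicate 2, 0.12 without 35-day replicate 4 and 0.33 when the anterior lobe level was adjusted for.

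Lyc2 was at 13.4, 16.5, 54.5 and 17.5 at 35 days and at 215, 249, 342 and 80.2 at 125 days. The ages did not overlap, although the highest younger library, replicate 3, came within 1.47 times of the lowest older one, replicate 4. Means were 25.5 ± 19.4 and 222 ± 108 (SD, n = 4), an 8.70-fold ratio and a log2 change of 3.13 (SE 0.51). Without 35-day replicate 3 the ratio was 14.0. Lyc2 varied most among the 5 genes, with a coefficient of variation of 76.2% at 35 days and 48.9% at 125 days, against at most 25.1% and 35.1% for the other 4 genes. The lowest library held 11 Lyc2 reads.

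**Figure D1:**
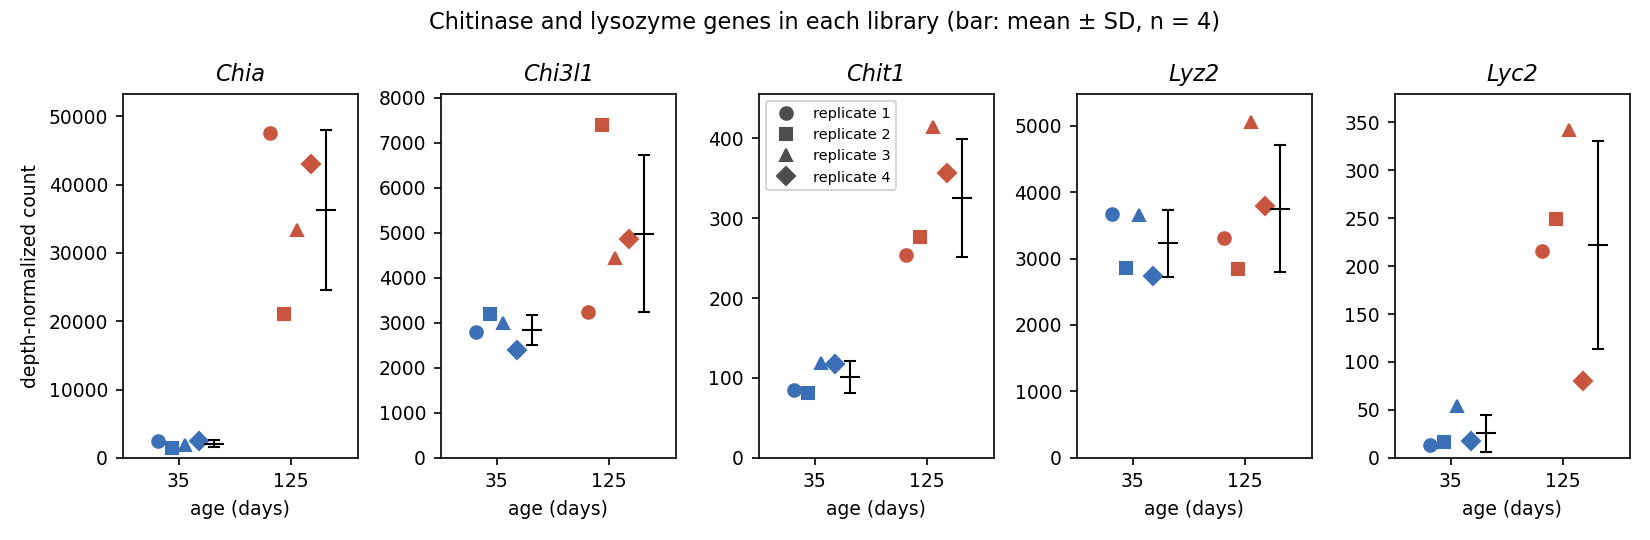
Depth-normalized count of each gene (vertical axis, from 0) in every library against age in days, with 1 marker shape per replicate number and the mean ± SD of 4 libraries beside them. Chia, Chit1 and Lyc2 separate by age, Chi3l1 meets at the border, and Lyz2 overlaps between 35 and 125 days.

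The neighbouring lysozyme genes thus differed in how far apart the ages were. Per 100 Lyz2 reads, Lyc2 had 0.365, 0.579, 1.49 and 0.640 reads in the 35-day libraries and 6.50, 8.75, 6.76 and 2.12 in the 125-day libraries. The ratio did not overlap between ages, and its mean was 0.769 ± 0.497 and 6.03 ± 2.80 (SD, n = 4). The sum of both genes was 3252 ± 513 and 3973 ± 1002 and overlapped between ages. This sum is free of how shared reads were split only if each was counted 1 time, and their treatment is not given. Its 1.22-fold ratio was close to the 1.16-fold ratio of Lyz2, since Lyc2 made up little of the sum.

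**Figure D2:**
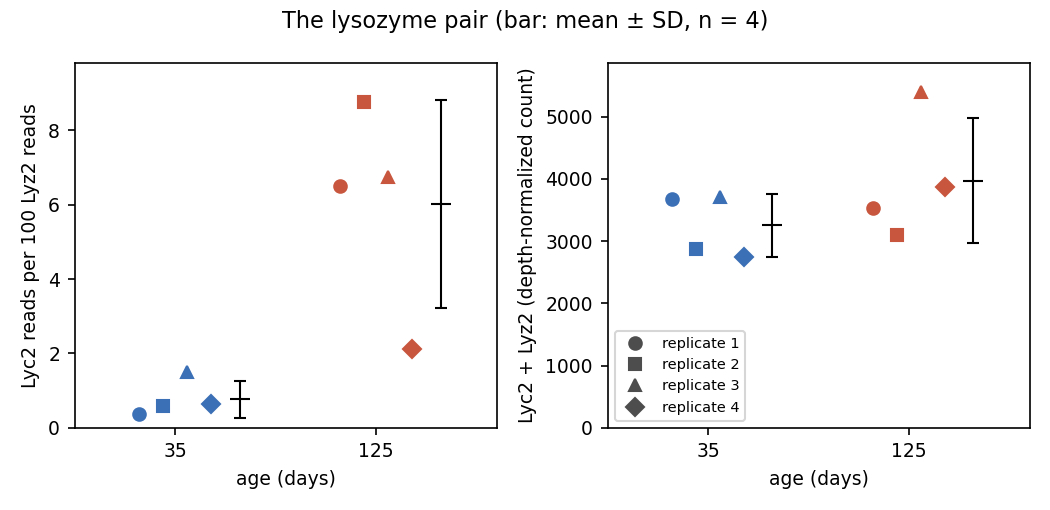
Left, Lyc2 reads per 100 Lyz2 reads in each library; right, the sum of both genes as a depth-normalized count, against age in days, with the mean ± SD of 4 libraries. The ratio lies between 0.365 and 1.49 at 35 days and between 2.12 and 8.75 at 125 days, while the sum overlaps.

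Within an age, which the choice of genes did not use, the 5 genes did not vary together. Among the 125-day libraries, Chia was lowest in replicate 2 (0.72 below the age mean on the log2 scale) and highest in replicate 1 (0.46 above). Chi3l1 was the reverse, highest in replicate 2 (0.63 above) and lowest in replicate 1 (0.56 below). At 35 days the library numbered 2 was the lowest for Chia (0.53 below) and the highest for Chi3l1 (0.18 above). Libraries of the same number at 35 and 125 days are separate, and no pairing by number was seen. Chit1, Lyz2 and Lyc2 shared a library instead: each was at its 125-day maximum in replicate 3, at 0.37, 0.46 and 0.80 above the age mean. Over the 8 deviations, which share the depth scaling, r was -0.84 between Chia and Chi3l1 and 0.55 between Chit1 and Lyz2. The lowest 125-day library differed between the last 3 genes, replicate 1 for Chit1, replicate 2 for Lyz2 and replicate 4 for Lyc2.

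**Figure D3:**
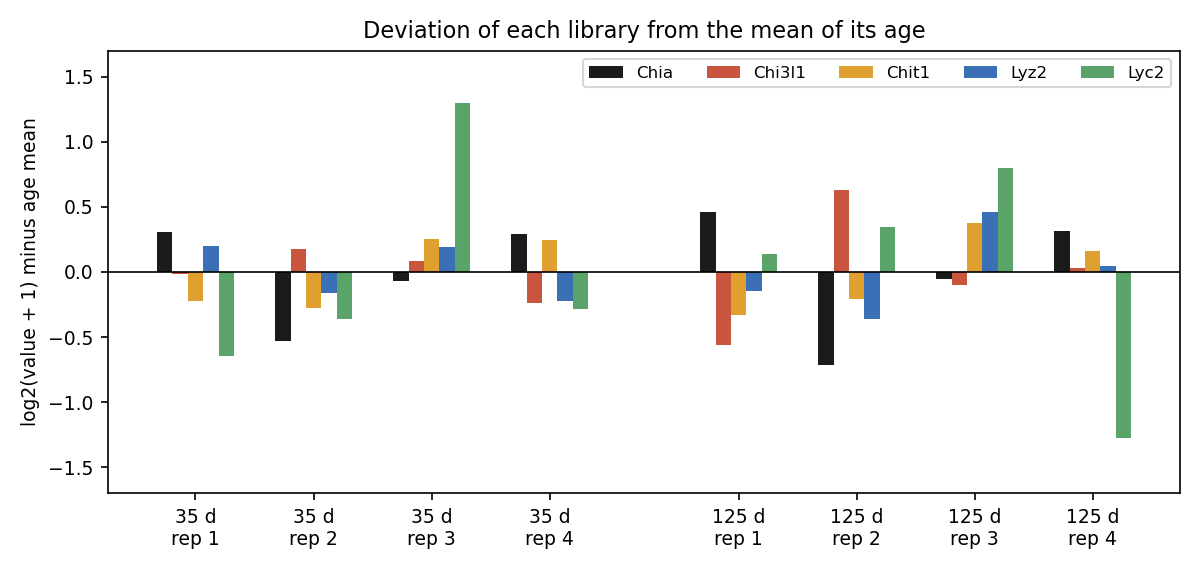
Deviation of each library from the mean of its age, in log2(value + 1), for the 5 genes, with libraries on the horizontal axis. In 125-day replicate 2 Chia lies 0.72 below and Chi3l1 0.63 above the age mean, and in 125-day replicate 3 Chit1, Lyz2 and Lyc2 lie above it.

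Within an age, the levels of some marker lists had the order of Chia across libraries, or its reverse. Among the 125-day libraries the mean log2 level of the 6 intermediate lobe markers had the same order as Chia, with 15.48 in replicate 1, 15.37 in replicate 4, 15.20 in replicate 3 and 15.10 in replicate 2. The 11 pituicyte markers ran in the opposite order in these libraries, at 11.17, 11.36, 11.39 and 11.85, and so did the 19 microglia and macrophage markers, at 8.45, 8.58, 8.81 and 8.96. At 35 days replicate 1 was the highest and replicate 4 the second for both Chia and the intermediate lobe level, and the other two libraries were in the opposite order. Neither of the opposite orders held at 35 days: pituicyte markers were at 12.29, 12.38, 11.88 and 12.16 in replicates 1 to 4, second highest in the library where Chia was highest, and the microglia list was at 8.88, 9.04, 8.97 and 8.86. Other lists described below matched as well. At 35 days the granulocyte and marrow list and the type 2 cytokine list had the full order of Chia. At 125 days the type 2 list ran in the reverse order and the granulocyte list in neither. With 12 lists and 4 libraries per age, some such orders can arise by chance. Between ages, the mean level of the intermediate lobe list was 0.41 higher at 125 days, beside a log2 change of 4.12 for Chia. In limma 2 of the 6 genes of that list rose: Pcsk2, a prohormone convertase gene, went from 19810 ± 4603 to 33627 ± 4725 (log2 change 0.79, SE 0.19, adjusted p = 0.0193) and Oacyl, listed as a melanotroph marker, from 11952 ± 3152 to 17404 ± 1289 (0.57, SE 0.17, adjusted p = 0.0403). Both calls were lost on adjusting for the anterior lobe level (log2 change 0.49, adjusted p = 0.195, and 0.20, adjusted p = 0.460) and in leave-one-out fits: the list held 0 calls when either replicate 1 or replicate 4 of the older group was left out. It held 1 call when replicate 2 or 4 of the younger group, or 2 or 3 of the older, was left out. The anterior lobe level itself differed between ages, at 9.13 to 13.78 at 35 days and 7.41 to 9.39 at 125 days. A call lost on adjusting for it, here or below, can come from that tie alone. The adjustment cannot separate this level from age. None of the 6 intermediate lobe genes was at 0. The part of this tissue in the Chia difference was not tested.

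Pituicyte markers fell in 4 of 11 (median log2 change -0.57; 7 of 11 when replicate 3 of the younger group was left out, and 7 with that adjustment). Gfap, the glial filament gene, went from 3295 ± 471 to 1074 ± 150 (log2 change -1.62, SE 0.14, adjusted p = 6.37e-05), and S100b, a calcium-binding protein gene of glia, from 8068 ± 1022 to 3090 ± 448 (-1.39, SE 0.13, adjusted p = 9.62e-05). The water channel gene Aqp4 (log2 change -1.22, SE 0.22, adjusted p = 0.00475) and the proteoglycan gene Vcan (-1.32, SE 0.28, adjusted p = 0.0106) fell too. Chi3l1 was thus higher at 125 days in libraries whose pituicyte list, summed, was at 65373 to 120140 at 35 days but 51890 to 82297 at 125 days. Much of these sums was 1 gene that was not called, Scn7a, at 26838 to 66096 and 27951 to 41583. The list's part in the Chi3l1 values was not tested.

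Of the other genes that handle chitin or bind these proteins, 8 were in the table and 6 could be tested; 1 fell, and the median log2 change was -0.05. That gene was Il13ra2, a decoy receptor for interleukin 13 that has also been described as a receptor for the Chi3l1 protein. It was at 852, 750.2, 936 and 660 at 35 days and at 264, 322, 378 and 263 at 125 days. No older library came near a younger one, and Il13ra2 fell from 799.5 ± 120 to 307 ± 55.0 (log2 change -1.38, SE 0.16, adjusted p = 3.14e-04). Tmem219, described as its co-receptor for Chi3l1, had means of 856 ± 205 at the younger age and 843 ± 37.4 at the older (adjusted p = 0.988 for a log2 change of 0.00 with an SE of 0.15). Of the enzymes that finish the breakdown of chitin fragments, these did not pass the test: Ctbs, a chitobiase gene, was at 1028 ± 131 and 1128 ± 163 (adjusted p = 0.538), and the lysosomal hexosaminidase gene Hexa at a log2 change of -0.22 (SE 0.13, adjusted p = 0.270). Chid1, a further chitinase-domain gene, was at 1666 ± 235 and 1607 ± 117 (adjusted p = 0.824). Chi3l3, the relative next to Chia in the RefSeq order, had a mean of 0.686 ± 1.03 at 35 days and was at 0 in all 4 libraries of 125 days, below the floor of 3 reads per library.

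Among the other lysozyme family genes, 8 were in the table and 1, Spaca5 of sperm, could be tested (20.8 ± 9.54 and 18.0 ± 7.33, adjusted p = 0.801). Limma thus called 0 of 1, with 0 at an unadjusted p below 0.05 and 0 in edgeR and DESeq2. Those too low to test, including the goose-type genes Lyg1 and Lyg2 and the lactalbumin gene Lalba, had means of at most 6.44.

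Macrophage genes give the setting for Lyz2 and Chit1. Of 19 microglia and macrophage markers, 18 could be tested and 4 fell (median log2 change -0.09): the microglial genes P2ry12 (from 1078 ± 155 to 539 ± 101, adjusted p = 0.00158) and Tmem119 (log2 change -1.13, SE 0.18, adjusted p = 0.00267), the perivascular macrophage gene Lyve1 (-0.70, SE 0.15, adjusted p = 0.00918) and Aif1 (-0.74, SE 0.20, adjusted p = 0.0306). The Aif1 call was lost on that adjustment and without any 1 of 4 libraries, 35-day replicate 1 and 125-day replicates 1, 3 and 4 (adjusted p 0.0543 to 0.248). The list summed to 17319 to 19888 at 35 days and 13063 to 19957 at 125 days, and the scavenger receptor gene Marco was at 0 in all libraries. Granulocyte and marrow markers, from cells that also make lysozyme, fell in 6 of 10 tested (median log2 change -2.16), among them the mast cell gene Cpa3 (from 107 ± 12.4 to 13.4 ± 6.28, adjusted p = 2.2e-04), Mpo (-1.81, SE 0.24, adjusted p = 9.05e-04), S100a9 (-2.84, SE 0.39, adjusted p = 9.74e-04) and Ngp (-3.01, SE 0.48, adjusted p = 0.00241). Summed, the list lay between 1083 and 1629 in the younger libraries and between 241 and 530 in the older ones, so the lysozyme and Chit1 values at 125 days stood beside lower granulocyte markers.

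Phagolysosome genes, which digest what macrophages take up, rose in 3 of 19 (median log2 change 0.11; 8 called without 35-day replicate 3, of which 7 higher, and 6 in DESeq2, of which 4 higher). Over all genes tested 8.85% were called higher. Gpnmb, a lysosomal glycoprotein of lipid-laden and phagocytic macrophages, was at 103, 99.2, 142 and 143 at 35 days and at 520.1, 596, 2253 and 389 at 125 days. The highest library was 125-day replicate 3, where Chit1, Lyz2 and Lyc2 also had their maxima. Its log2 change was 2.58 (SE 0.46, adjusted p = 0.00424), and 2.03 without that library (adjusted p = 5.32e-04). At 125 days the mean log2 level of the phagolysosome list was also highest in replicate 3 (11.32). The microglia and macrophage list was instead highest in replicate 2 (8.96, against 8.81 in replicate 3). Cd68, a macrophage lysosome membrane gene, was at 191, 187, 377 and 176 at 125 days, again highest in replicate 3, and at 97.1 to 131 at 35 days (log2 change 0.90, SE 0.24, adjusted p = 0.0293). On adjusting for the anterior lobe level the log2 change was 0.97, no smaller, but the call was lost (adjusted p = 0.0884). It was also lost when replicate 1, 2 or 4 of the younger group or replicate 1 of the older was left out (0.0528 to 0.0821). Mitf, encoding a transcription factor of lysosome and pigment genes, rose 0.67 (SE 0.14, adjusted p = 0.00927), a call lost on that adjustment (log2 change 0.48, adjusted p = 0.103).

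Genes of type 2 cytokine signalling, which induces Chia and other chitinase-like genes in mucosa and macrophages, fell in 2 of 15 tested (median log2 change 0.06; 4 called, all lower, without 35-day replicate 3, and 4 in DESeq2, of which 1 higher). These 2 were Arg1, the arginase of alternatively activated macrophages (from 713 ± 129 to 376 ± 60.7, adjusted p = 0.00391), and Retnlg, a resistin-like gene of granulocytes (from 23.9 ± 11.2 to 1.29 ± 1.22, adjusted p = 0.00131). Over all genes tested 8.87% were called lower, so nothing is read from the count of this list or the next. The cytokine gene Il13 was at 0 in all 8 libraries and Il4 had a mean of 0.304 at 35 days and 0.244 at 125 days. Stat6, which carries their signal, was at 932 ± 199 and 1192 ± 67.7 (adjusted p = 0.114). In the list of reactive glia and acute phase genes, to which signals known to induce Chi3l1 belong, 2 of 18 fell, Gfap and the interleukin 1 receptor gene Il1r1 (log2 change -0.59, SE 0.18, adjusted p = 0.0464). Stat3 was at 6527 ± 525 and 7560.2 ± 277 (adjusted p = 0.131). The Il1r1 call was lost without filter and without any 1 of 6 libraries, all but 35-day replicate 3 and 125-day replicate 2 (adjusted p 0.0523 to 0.127). Without 35-day replicate 3, 6 genes of this list were called, 2 of them higher, and 5 on adjusting for the anterior lobe level.

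Secreted antimicrobial proteins went both ways, 2 higher and 3 lower of 10 tested (median log2 change 0.13). Camp, the cathelicidin of granulocytes, fell from 55.6 ± 17.1 to 8.43 ± 3.86 (adjusted p = 8.31e-04). Reg3b, a secreted lectin, fell by 1.99 on the log2 scale (SE 0.45, adjusted p = 0.0132), and Bpifa1, a secreted airway protein gene, by 3.24 (SE 0.70, adjusted p = 0.0108), with 260.4 in 35-day replicate 3 against 21.9 to 75.4 in the other younger libraries. On adjusting for the anterior lobe level both calls were lost, Reg3b with the same size of change (log2 change -1.98, adjusted p = 0.0644) and Bpifa1 with a smaller one (-1.33, adjusted p = 0.107). Pigr, the immunoglobulin transporter of mucosal epithelium, was higher (0.91, SE 0.24, adjusted p = 0.0277), as was the protease inhibitor gene Slpi (0.92, SE 0.28, adjusted p = 0.0464). The same adjustment ended both of these calls, with a smaller log2 change for Pigr (0.53, adjusted p = 0.266) and a larger one for Slpi (1.15, adjusted p = 0.0734), and edgeR did not call Slpi. Neither of these 2 calls held when replicate 1 or 2 of the younger group, or any 1 library of the older group, was left out. Markers of mucosal and glandular epithelium, the known source of Chia elsewhere, gave 0 calls of 11 in limma, with 3 at an unadjusted p below 0.05 and 0 in edgeR and in DESeq2 (4 called without 35-day replicate 3, 2 higher and 2 lower, and 2 on adjusting for the anterior lobe level, both higher). They summed to 19502 to 29385 at 35 days and 17502 to 21849 at 125 days. Much of these sums was from the general epithelial genes Epcam, Krt8 and Krt18, so they do not measure an amount of mucosa or gland. Most of the general epithelial genes were well detected, among them Epcam, a surface adhesion gene (8567 ± 2261 and 6480 ± 605), and the keratin gene Krt8 (5253 ± 936 and 5248 ± 705), as was the gland water channel gene Aqp5 (126 ± 37.3 and 141 ± 22.7). The airway gene Scgb1a1 (means of 1.65 and 0.244) and the salivary gene Bpifa2 (0 and 0.244) were among the 5 too low to test. The part of epithelial cells in the Chia values was not tested.

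**Figure D4:**
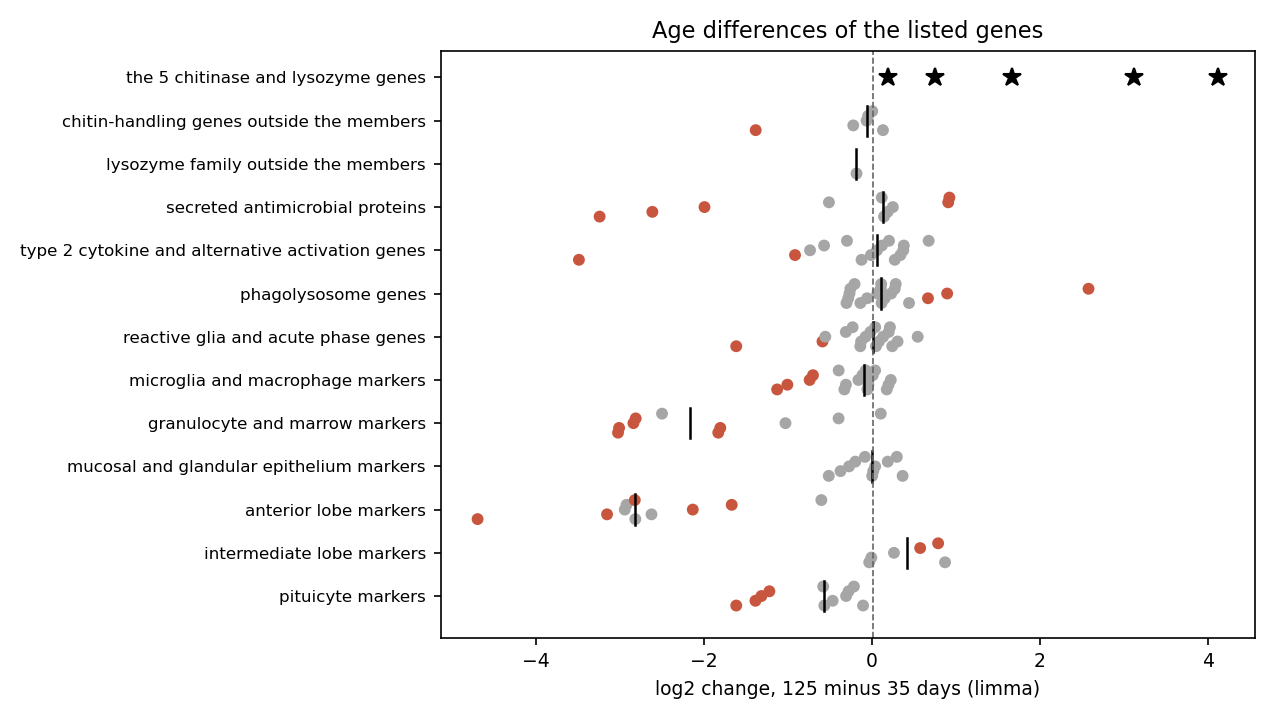
Log2 change, 125 minus 35 days, of each tested gene (points, coloured where the adjusted p is below 0.05 and grey otherwise) by list, with the list median as a vertical bar and the median of all genes tested as a dashed line. Stars show the 5 chitinase and lysozyme genes, from 0.20 for Lyz2 to 4.12 for Chia, without call colours because their age difference chose them.

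Genes with the most similar pattern were sought among 12811 tested genes with a mean of at least 100, by Pearson's r of log2(value + 1) over the 8 libraries. Since the ages stand apart, a high r over all 8 libraries can come from a like age difference alone. Closest to Chia were Cpne4, encoding a calcium-dependent membrane-binding copine (r = 0.995), Nol3 (0.993), Sgcz (0.992) and the opioid precursor gene Pdyn (0.991). Cpne4 was at 15.8, 6.20, 10.9 and 8.47 at 35 days and at 802, 411, 518 and 842 at 125 days. Within each age its lowest library was thus that of Chia. Pdyn was at 1155 to 1415 and 5487 to 6842, with its lowest older value in replicate 2. Closest to Lyc2 were Nrsn2 (0.983), Ldhd (0.969), the inhibitory Fc receptor gene Fcgr2b (0.963) and Plin3 (0.961). Fcgr2b, of macrophages and B cells, was at 75.1 to 118 at 35 days and 160 to 216 at 125 days. Within each age it was highest in the library where Lyc2 was highest. Chit1 was closest to Arg2 (0.989), the class I antigen gene RT1-S3 (0.986) and Nxph3 (0.984). Chi3l1 was closest to Aifm2 (0.977), the complement inhibitor gene Serping1 (0.959), the small heat shock gene Hspb1 (0.951) and Me3 (0.948), and Lyz2 to Sult1a1 (0.907), Map2k5 (0.906), Gtpbp8 (0.892) and Tma16 (0.880).

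**Figure D5:**
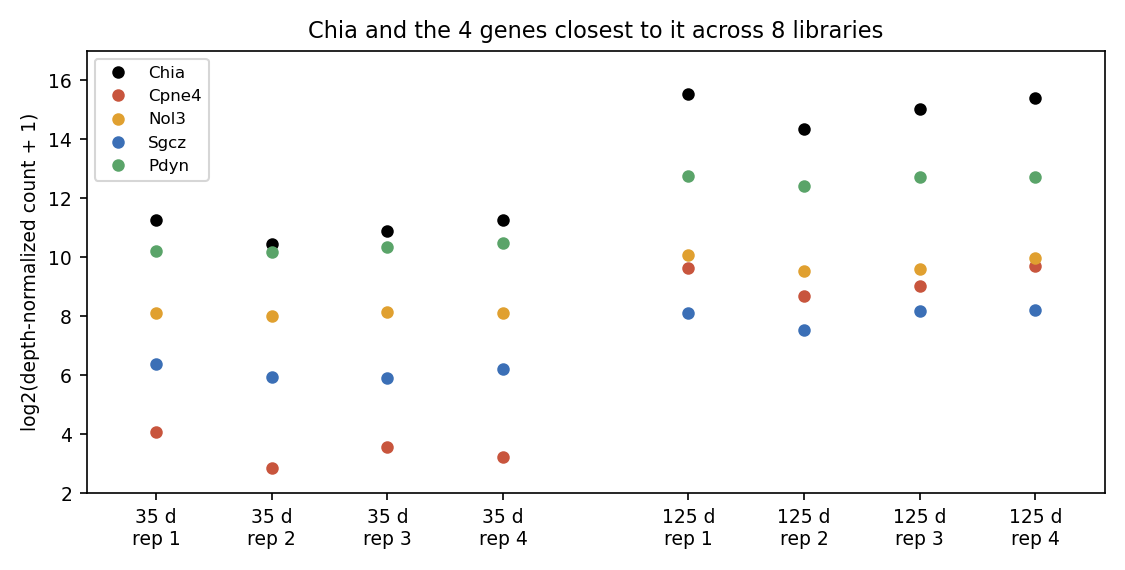
Log2(depth-normalized count + 1) of Chia and of Cpne4, Nol3, Sgcz and Pdyn in each of the 8 libraries. All 5 genes are higher in each 125-day library than in any 35-day library, and each has its lowest 125-day value in replicate 2.

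With the age means taken out, only the spread between libraries of the same age remained. Other genes then came closest, except that Nrsn2 stayed the closest to Lyc2. For Chia these were the potassium channel domain gene Kctd8 (r = 0.980 over the 8 deviations), Det1 (0.946) and Ccser1 (0.940). Kctd8 was at 290, 203, 245 and 287 at 35 days and at 621, 412, 537 and 557 at 125 days, which is the order of Chia among the older libraries and at 35 days. For Chi3l1 they were Cspg5 (0.992), a chondroitin sulfate proteoglycan gene of neural tissue, Serpine2 (0.989), a protease inhibitor gene of glia, and Adipor1 (0.983). Cspg5 was at 4867 ± 536 and 3158 ± 816, the opposite direction of age difference from Chi3l1. Lyz2 was closest to Mark3 (0.961), Ckap2l (0.932) and Rmi2 (0.930), Chit1 to Angpt2 (0.947), Cdk5rap1 (0.942) and Fbxl12 (0.938), and Lyc2 to Nrsn2 (0.938), Rbm26 (0.937) and Prmt2 (0.934). Each r rests on 8 libraries that share their depth scaling and the dissection, and was the highest of 12811 candidates or close to it.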

How the data were processed

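Libraries were grouped by the age and replicate number in their titles. The deposited values are a signal: counts of reads per gene over a library's size factor (0.793 to 1.77). This was read from the values, 100% of which were whole multiples of 1 read (tolerance 0.001). Build rn7, HISAT2 2.2.1 and Subread 2.0.1 with featureCounts are named in the submitters' processing notes, as are Trimmomatic 0.39, SAMtools 1.13 and DESeq2 1.34.0. For annotation, strand setting and treatment of shared reads: not given in the sources used here. Counts of a gene may thus hold reads of one that overlaps it on either strand.

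Log2(value + 1) was fitted with limma 3.58.1 (R 4.3.3) with an intensity trend and age as the only term. The 17919 genes tested reached 10 in 4 or more libraries. Tests were two-sided with Benjamini-Hochberg adjustment over all of them, and calls were made below 0.05. The log2 changes of low genes are understated on this scale. The 5 genes, the 12 lists and the alternatives were chosen with earlier results of these data known. Named are all 5 genes, at most 4 called genes per list with the lowest adjusted p, and the genes closest by r. Some results that this rule selects are not reported here. Slpi and list genes that were not called were named after their values were seen. Alternatives were other pseudocounts, filters and TMM scaling; recovered reads in edgeR 4.0.16 or DESeq2 1.42.0; a replicate block; adjustment for the anterior lobe markers; and each library left out in turn. The fit was tested on simulated data. Promoters came from RefSeq (GRCr8), matched by symbol for 5 of 5 genes. Floors cover counting error only.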

Additional observations from a re-analysis of the deposited data

Results flagged for a closer look

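At 35 days Lyc2 was at 54.5 in replicate 3, apart from the other 3 younger libraries (13.4 to 17.5). Its gap to the next library, as a share of the group's range, passed Dixon's 95% criterion for 4 samples, as did the list levels given here. In the same library the mean log2 level of the chitin-handling genes was 8.49, against 7.95 to 7.97 in the other 35-day libraries. That level includes Chi3l3 and Fibcd1, which were too low to test. They were at 2.18 and 1.09 in this library and at most 0.564 and 0 in the other younger ones. Part of this gap thus rests on counts below the floor of 3 reads. At 125 days the anterior lobe marker level was 7.41 in replicate 2 and 9.25 to 9.39 in the others. These are 3 of 34 groups examined, and chance marks about 1 in 20.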

How the results depend on the processing

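The number of genes called over the whole table was 3174 (1585 higher, 1589 lower). It was 5495 without 35-day replicate 3, 1978 without 125-day replicate 1, 1948 without 125-day replicate 3 and 1894 without 125-day replicate 4, so leaving out 1 library spanned 1894 to 5495. It was 2630 to 4196 under the other alternatives, with 2718 under the replicate block. Among the list genes named, the block ended the call of Pigr alone. No pairing by replicate number was seen: same-numbered libraries correlated in their deviations from the age means at -0.116 to 0.167, and 2 of 8 libraries were closest to their own number. A weak pairing could go unseen in so few libraries.

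The log2 changes of the 5 genes kept their sign in all 17 alternatives each. They were 3.94 to 4.36 for Chia, 0.54 to 0.94 for Chi3l1, 1.55 to 1.93 for Chit1, 0.04 to 0.33 for Lyz2 and 2.86 to 3.84 for Lyc2. The other filters and the replicate block leave a log2 change as it is by design. Dropping 1 of 4 libraries can move it only within the spread of its age. These ranges are therefore descriptions, of the contrast that chose the genes. Counts of list calls ranged over 2 to 7 for antimicrobial proteins (5 in the reported fit), 1 to 4 for type 2 genes (2), 2 to 8 for phagolysosome genes (3), 1 to 6 for reactive glia (2), 0 to 4 for epithelium (0), 3 to 9 for anterior lobe (5), 0 to 3 for intermediate lobe (2) and 4 to 7 for pituicyte markers (4). The cause of these shifts was not tested. Depth limits Lyc2 at 35 days, where as few as 11 reads were counted.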

Other observations

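Neighbouring genes in the RefSeq order (GRCr8), examined after the data were seen, gave a mixed picture around the chitinase and lysozyme loci. Next to Chia, Prdx1l1 was at 1316 ± 216 and 1007 ± 25.2 (log2 change -0.37, SE 0.12, limma adjusted p = 0.0602), and Dennd2d, 3 genes away on the other side, rose from 145 ± 26.7 to 224 ± 36.1 (0.63, SE 0.17, adjusted p = 0.0321). Chi3l3 and Chial1 (listed as RGD1309110), the relatives of Chia that lie before Dennd2d, had at most a mean of 0.686 at either age. Btg2, an antiproliferative immediate early gene beside Chit1, rose from 4077 ± 781 to 10576 ± 2834 (log2 change 1.35, SE 0.21, adjusted p = 0.00199). On the far side of Chi3l1, Mybph (log2 change 0.77, SE 0.32, adjusted p = 0.135) and the adenosine receptor gene Adora1 (-0.10, SE 0.17, adjusted p = 0.713) did not pass the test. Near the lysozyme pair, Cpsf6 (log2 change -0.00, SE 0.08, adjusted p = 0.978) and Yeats4 (-0.35, SE 0.14, adjusted p = 0.129) did not pass either.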
